A study of Mus musculus with 28 samples.

Results

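The 81 genes described here encode the proteins of the cytosolic ribosome of the mouse. They were chosen by symbol alone, as Rpl or Rps followed by a number and at most one letter of a, x or l, with Rplp0, Rplp1, Rplp2 and Rpsa added and pseudogene and S6 kinase symbols left out. They are 81 of the 23995 genes in the expression tables, 49 of them named for the large subunit and 32 for the small subunit. All 81 had a gene in the GENCODE annotation, 80 of them protein coding. Rps4l, the exception, is annotated as a transcribed processed pseudogene.

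A ribosome is built from a small subunit, which reads the messenger RNA (mRNA), and a large subunit, which joins the amino acids, and each subunit holds ribosomal RNA and one copy of most of its proteins. Nearly all mRNAs of ribosomal proteins begin with a C followed by a run of pyrimidines, the 5′ terminal oligopyrimidine (TOP) sequence, through which the mTOR pathway can hold or release their translation together. Although subunits are assembled in the nucleolus, mRNAs of ribosomal proteins are among the common mRNAs of axons, where no nucleolus is present.

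The study asked which mRNAs are bound to ribosomes in the axons of retinal ganglion cells (RGCs), the neurons that connect the eye with the superior colliculus (SC), while these axons grow, branch, are pruned and reach maturity. C57BL/6 mice carried the RiboTag allele, in which Cre recombination adds an HA epitope to the ribosomal protein Rpl22, and the axon-TRAP libraries came from HA immunoprecipitates of SC lysates. Cre was driven by the alpha enhancer of Pax6 in progenitors of the peripheral retina, so tagged ribosomes in the SC of Cre-positive mice were taken to lie in retinal axons, and Cre-negative littermates with the same RiboTag allele gave the background of the precipitation. Libraries were made from embryos (E17.5), from pups after birth (P0.5 and P7.5) and from adults, in 2 replicates of Cre-positive SC, Cre-negative SC and Cre-positive retina at each stage, and 4 further adult Cre-positive libraries compared SC and retina with and without ribosome run-off. Each SC sample pooled 6 colliculi and each retina sample 3 eyes, and the complementary DNA was amplified by PCR before sequencing. The study describes SC and retina of Cre-positive mice as taken from the same animals, but the labels tie no replicate number to an animal, litter or day. The libraries were therefore fitted as separate samples, and the p-values measure the spread between these samples, which may be technical. In such bulk samples fewer tagged cells or axons and less RNA in each of them cannot be told apart.

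Values are FPKM, in which the fragments of a gene are divided by the length of its transcript and by the mapped fragments of the library, so levels are compared per length. Read depth could be estimated from the spacing of low FPKM values in 9 libraries and ran from about 520000 to about 12100000 fragments, while the spacing was not clear in the other 15 libraries. Genes listed above 0 made up 4.84% of all genes in the sparsest library and 36.5% in the fullest. The label of the tissue was checked on 10 RGC markers, of which 2 to 7 reached 1 FPKM in each retina library and 0 to 5 in each SC library. The RGC marker Rbpms was listed at 0 in all 16 SC libraries, but also in the 4 retina libraries of P7.5 and the adult, so neither it nor the number of RGC markers separated the tissues. Of 8 photoreceptor markers, 1 and 8 reached 1 FPKM in the P7.5 retina libraries (2529 and 369 FPKM in sum) and 5 and 8 in the adult retina libraries (639 and 276 FPKM). At most 3 of them did in the SC libraries, with the exception of adult Cre-negative SC replicate 1, where 7 did and none was at 0 (90.7 FPKM in sum). Many members, although used by every cell, were listed at exactly 0, which in such a table can be a failed estimate or too few fragments, and each library's own value is therefore given.

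The starts of 10 members are shown because the TOP sequence is the feature that members are known to share and that the choice by symbol did not use. Each window runs from 10 bases before the RefSeq start of transcription to 15 bases from it, on the strand of the gene (build GRCm38.p6), and capitals mark a C followed by at least 4 pyrimidines (CNNNN with every N a C or T), searched on the gene's own strand within 10 bases of the start and marked from the C nearest to the start. In the 8 marked members that C is the start itself, and pyrimidines before it stay in lower case. The first 5 passed the test between Cre-positive and Cre-negative SC at P0.5. The next 3 stayed near 0 FPKM in nearly all libraries although they have the same kind of start. The last 2 had the highest median FPKM in the retina and have no such run in this window.
Rplp2, chr7:141447641-141447665, plus strand: cagcgtcttcCTTTCgccgccggac
Rps18, chr17:33955651-33955675, minus strand: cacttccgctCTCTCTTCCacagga
Rpl35, chr2:39005117-39005141, minus strand: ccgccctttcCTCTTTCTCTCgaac
Rps15a, chr7:118116133-118116157, minus strand: tttctgccatCTTCCCTCgccggtg
Rps21, chr2:180257369-180257393, plus strand: aggacccgccCTCCTgcccaatagt
Rpl15, chr14:18270972-18270996, minus strand: agaaagccttCTTCCTTTCCTCTgg
Rps6, chr4:86857353-86857377, minus strand: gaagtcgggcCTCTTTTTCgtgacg
Rps27, chr3:90213634-90213658, minus strand: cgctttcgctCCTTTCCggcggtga
Rps3, chr7:99483695-99483719, minus strand: aagggtcgccgcgctgcgcggcgtc
Rps25, chr9:44407704-44407728, plus strand: ccgacatcttagcgaggctgctgtg

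Of the 81 members, 60 had a start in the RefSeq promoter table. A pyrimidine run beginning exactly at a listed start was found in 13 of these 60 (21.7%), against 813 of 27025 genes in the table (3.01%). Within 10 bases of the start the run was found in 38 of 60 members (63.3%), against 34.4% of all genes. The proteins of the mitochondrial ribosome, which are imported into mitochondria, had 0 of 69 genes with the run at the start itself and 31 of 69 (44.9%) within 10 bases. Translation factors and other known TOP partners had it at the start in 3 of 10 genes (30%). A missing run says only that these letters are not in this window, and RefSeq starts can lie some bases from the start used in a tissue. Members with a run within 10 bases were not the more abundant ones, with a median of 1.07 for the mean log2(FPKM + 1) over the 24 libraries (n = 38), compared with 2.03 for members without it (n = 22), which is given as a description.

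The members differed widely in level. Rps3, Rps9 and Rplp2 were listed above 0 in all 24 libraries, and Rpl10l, Rpl17, Rpl39l and Rpl3l were listed at 0 in all 24. Of the 81 members, 40 reached 1 FPKM in at least 12 libraries and 17 never reached 10 FPKM.

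**Figure D1:**
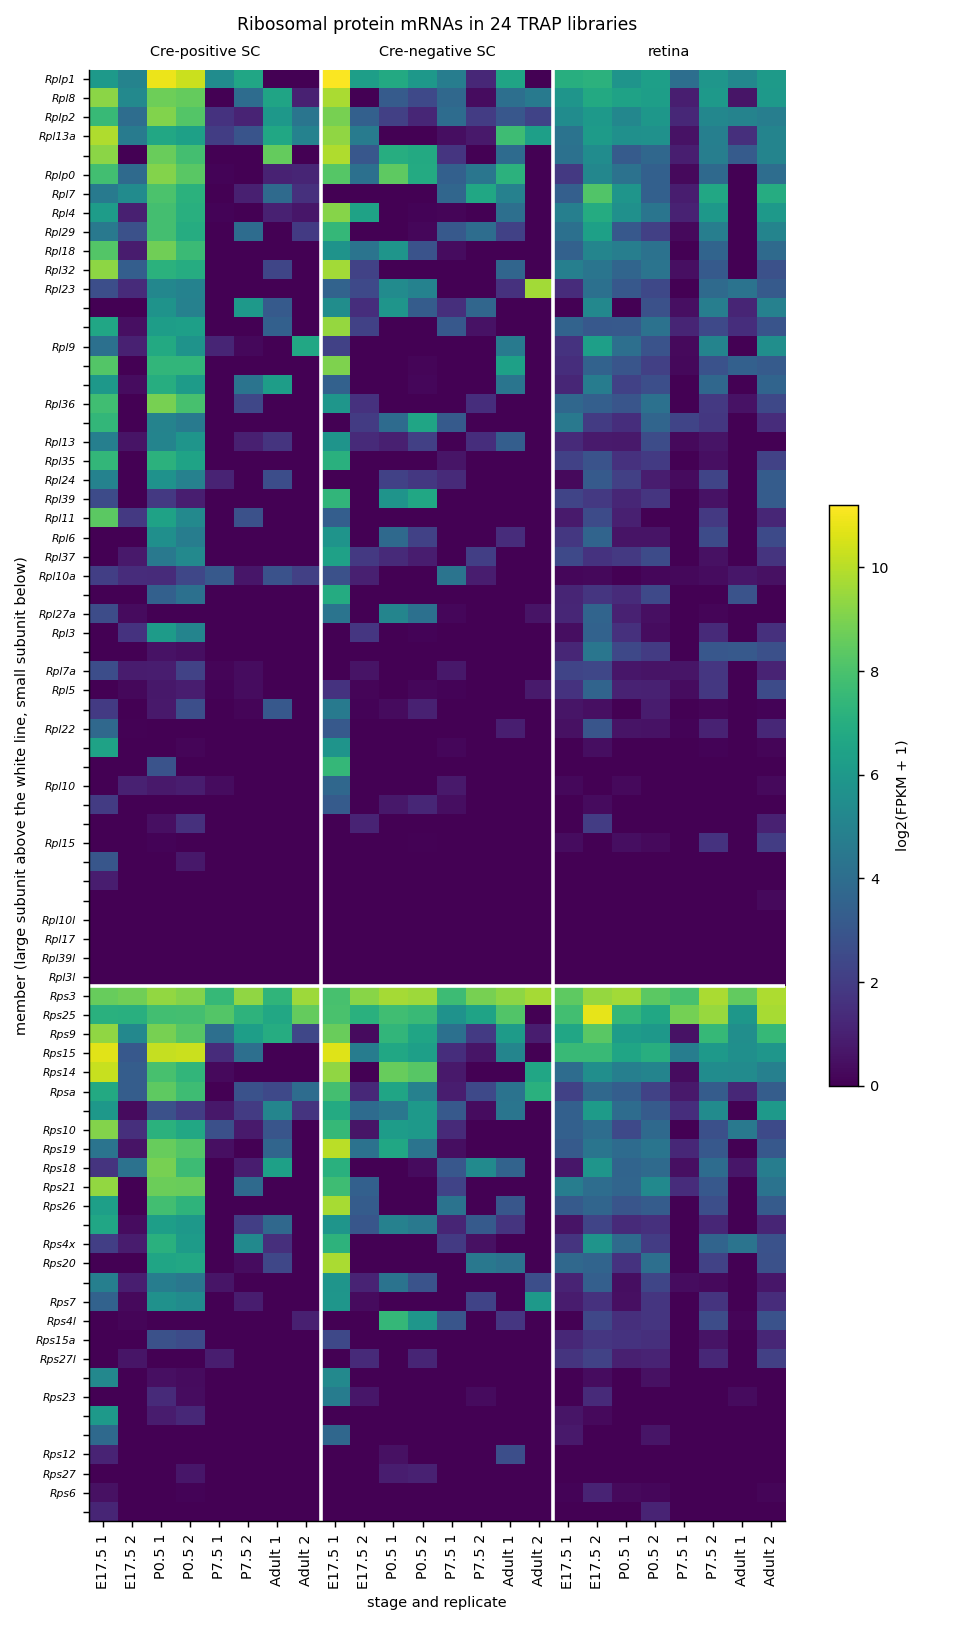
Level of 76 of the 81 members (rows, with names for members named in the text) in each of the 24 libraries (columns, stage and replicate), as log2(FPKM + 1) from dark (0) to yellow (above 10), with large-subunit members above the horizontal white line, small-subunit members below it, and vertical white lines between the SC with Cre, the SC without Cre and the retina. Rps3 and Rps25 are bright in nearly every column, the 2 P0.5 Cre-positive SC columns are bright for most members and alike, and 4 rows are dark throughout.

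The most even member was Rps3, a small-subunit protein at the entry of the mRNA channel, which ranged from 162 to 906 FPKM over the 24 libraries. It was the highest member in 16 of the 24 libraries, among them adult Cre-negative SC replicate 2, where it stood at 826 FPKM while 12 members were above 0. Rps25, a small-subunit protein required by several viral internal ribosome entry sites, was the other member high almost everywhere, with 1764 FPKM in E17.5 retina replicate 2 as its highest value and 0 in adult Cre-negative SC replicate 2 as its lowest. Rps3 and Rps25 have no near-identical copy elsewhere in the genome (at least 95% identity over at least 80% of the transcript), but Rps3 holds the small nucleolar RNA genes Snord15a and Snord15b, and Rps25 overlaps the coding genes Ccdc84 and Trappc4. Over the 8 retina libraries the median was 533 FPKM for Rps3, 344 for Rps25, 84.8 for Rps9, 79.7 for Rps15 and 65.5 for Rpl8. The neighbours in this order overlapped in range in the retina in each case, also Rps25 (59.1 to 1764 FPKM) and Rps9 (0.479 to 318 FPKM), between which the medians lay farthest apart. The read counts of the separate adult retina library without run-off did not place Rps25 second. It had 39 reads there, against 1658 for Rps3, 765 for Rpl8, 194 for Rps9 and 44 for Rps15. The high rank of Rps25 thus holds for FPKM only.

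At the other end stood members that stayed near 0 FPKM in nearly all libraries. Rps6, the substrate of the S6 kinases, reached at most 1.18 FPKM, in E17.5 retina replicate 2, and was listed at 0 in both replicates of 7 of the 12 groups. Rpl15, a large-subunit protein, reached at most 2.96 FPKM, in adult retina replicate 2. Rps27, which carries a zinc finger, was above 0 in 3 libraries only, at 0.589 FPKM in P0.5 Cre-positive SC replicate 2 and at 0.881 and 1.05 FPKM in P0.5 Cre-negative SC.

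Reads that fit several near-identical copies can be lost or split in counting. Such copies were found for 25 members, with the most, 32, for Rpl7a. The members with copies included 7 of the 17 that never reached 10 FPKM and 18 of the other 64. Of the low members named above, Rps6 has 10 such copies, Rps27 has 1 and Rpl15 has 0, so that the low levels of Rps6 and Rps27 are less certain. Over the 81 members, the number of copies and the mean log2(FPKM + 1) had a Spearman correlation of -0.03, a description across genes that share the same libraries. In the separate run-off libraries, which were counted as reads, 8 of the 17 had at least 1 read in a library without run-off, with Rpl7a the highest at 45 reads, as had 58 of the other 64. In addition, 29 members hold a small nucleolar RNA gene and 19 overlap another coding gene, so that part of their fragments may belong to it, which was not tested.

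The share of all summed FPKM held by the 81 members differed between groups and, at E17.5, between replicates. It was 4.75 and 0.350% in E17.5 Cre-positive SC and 4.28 and 0.561% in E17.5 Cre-negative SC (replicate 1 and 2). At P0.5 it was 3.03 and 2.79% in Cre-positive SC, above 0.787 and 1.15% in Cre-negative SC and 0.415 and 0.557% in retina. At P7.5 and in the adult all 12 libraries lay between 0.210 and 1.05%, with the Cre-positive, Cre-negative and retina values overlapping.

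**Figure D2:**
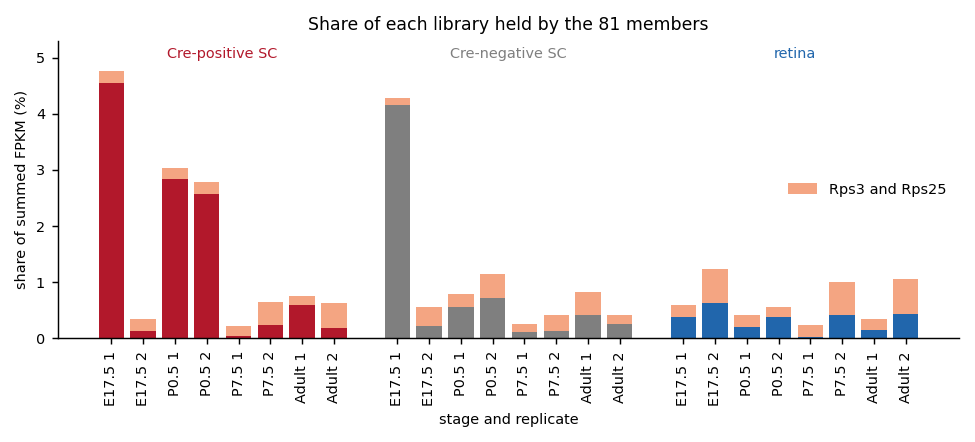
Bars give the share of each library's summed FPKM (%) held by the 81 members, by stage and replicate, in Cre-positive SC (red), Cre-negative SC (grey) and retina (blue), and the light top of each bar is the part of Rps3 and Rps25. Only replicate 1 of both E17.5 SC groups (4.75 and 4.28%) and the P0.5 Cre-positive SC libraries (3.03 and 2.79%) lie above 2%.

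How far members could be measured also depended on the replicate. At P0.5 the replicates agreed closely, with a Pearson correlation of log2(FPKM + 1) over the 81 members of 0.984 in Cre-positive SC, 0.966 in Cre-negative SC and 0.917 in retina. No member at P0.5 was at 0 in one replicate and at 10 FPKM or more in the other. In the adult the same correlations were 0.485, 0.298 and 0.561, and 6, 18 and 13 members were at 0 in one replicate and at 10 FPKM or more in the other. These correlations are across genes of a pair of libraries, which are not independent replicates.

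At E17.5 replicate 1 stood apart from replicate 2 in both SC groups. Of the 68 members tested in SC, 48 (70.6%) were higher in replicate 1 than in replicate 2 in both Cre-positive and Cre-negative SC, compared with 23.4% of all genes tested. Rps15, a protein of the small-subunit head, was at 1652 and 7.46 FPKM in Cre-positive SC, compared with 1630.4 and 24.8 FPKM in Cre-negative SC. Rps14, on the platform of the small subunit, was at 1219 and 8.74 FPKM in Cre-positive SC, compared with 645 and 0 FPKM in Cre-negative SC. Rps3 did not share this pattern, with 388 and 441 FPKM in Cre-positive SC and 245 and 587 FPKM in Cre-negative SC. The pattern thus ran across both Cre groups of SC. In E17.5 retina the order was the other way, with 55 members higher in replicate 2 and 16 in replicate 1. Since the labels tie no number to an animal, litter or day, what the replicate 1 libraries of SC share is not known. Across the members, Cre-positive replicate 1 correlated more with Cre-negative replicate 1 (r = 0.641) than with Cre-positive replicate 2 (r = 0.5). For replicate 2 the pairs lay close together. Cre-negative replicate 2 had r = 0.538 with Cre-positive replicate 2 and r = 0.53 with Cre-negative replicate 1. The 5 haemoglobin genes used as red blood cell markers summed to 762 and 2489 FPKM in replicate 1 and to 17.4 and 41.7 FPKM in replicate 2 of Cre-positive and Cre-negative SC, 3 or 4 of the 5 reaching 1 FPKM in replicate 1 and 1 or 2 in replicate 2, with Hbb-b1 listed at 0 in both libraries of replicate 1. Their part in the members' levels was not tested.

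**Figure D3:**
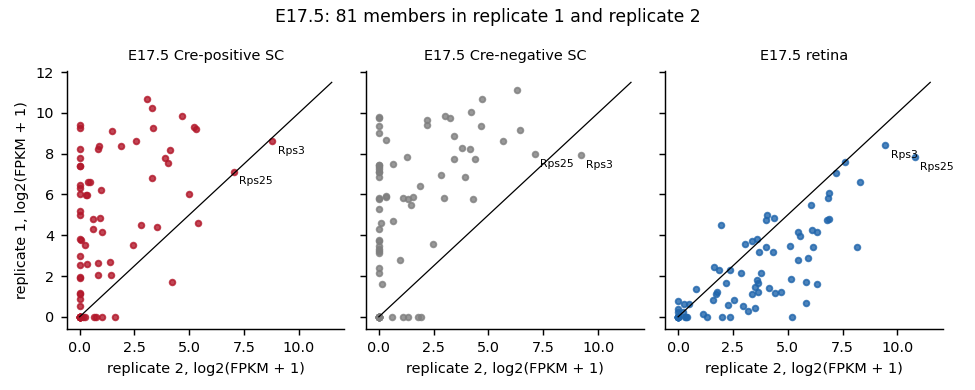
Each point is one of the 81 members at E17.5, with its level in replicate 2 on the horizontal axis and in replicate 1 on the vertical axis, both as log2(FPKM + 1), in SC with Cre (left), SC without Cre (middle) and retina (right), and the line marks equal levels. In both SC panels most points lie above the line, while Rps3 lies on or below it, and in the retina most points lie below it.

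Setting Cre-positive against Cre-negative SC asks which mRNAs were recovered through the tag. At P0.5 most members were higher in Cre-positive SC. Of the 68 members that reached 1 FPKM in at least 2 of the 16 SC libraries, 19 passed the threshold as higher (27.9%), where 28.1% of all genes tested did, and 2 as lower (2.94%), where 4.35% of all genes did (limma on log2(FPKM + 1), Benjamini-Hochberg adjusted p under 0.05). The share of members called was thus close to that over all genes. Both Cre-positive libraries were above both Cre-negative libraries for 50 of the 68 (73.5%), compared with 51.3% of all genes, and below for 7 (10.3%), compared with 10.6%. The median difference was 2.36 on the log2(FPKM + 1) scale over the members tested, 1.44 over all 81 members and 0.78 over all genes tested. Red blood cell markers were alike in both groups (134 and 168 FPKM in Cre-positive, 109.6 and 165 FPKM in Cre-negative SC, summed over 5 genes). Astrocyte markers moved with the members, with sums over 6 genes of 47.9 and 36.2 FPKM in Cre-positive and 5.78 and 10.6 FPKM in Cre-negative SC. Of these, 3 and 2 reached 1 FPKM in Cre-positive and 1 in each Cre-negative library, and Gfap, Aqp4 and S100b were listed at 0 in all 4. The 10 RGC markers were not higher in Cre-positive SC, with sums of 512 and 245 FPKM against 940.2 and 330.1 FPKM, 4 or 5 of them reaching 1 FPKM in each library. Of 6 oligodendrocyte markers only Cnp was above 0 (84.7 and 86.6 against 86.2 and 48.1 FPKM), and 3 markers of inhibitory neurons were listed at 0 in all 4 libraries. Of 5 microglia markers, 1 was above 0 in Cre-negative SC (77.0 and 43.3 FPKM, C1qa) and none in Cre-positive SC, and Cx3cr1, C1qb, Aif1 and Csf1r were listed at 0 in all 4 libraries. The part of these cells in the comparison was not tested.

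Among the large-subunit members, Rpl3, which reaches towards the peptidyl transferase centre, had the smallest adjusted p. It was at 70.1 and 32.7 FPKM in Cre-positive SC, compared with 0 and 0.0714 FPKM in Cre-negative SC. The groups did not overlap, and the difference was 5.56 on the log2(FPKM + 1) scale (SE 0.75, limma adjusted p = 0.00017). Rpl36 was at 476 and 247 FPKM in Cre-positive SC and listed at 0 in both Cre-negative libraries, a difference of 8.43 (SE 2.17, limma adjusted p = 0.0121). Rpl4, which lines the exit tunnel of the new peptide, was at 233 and 134 FPKM against 0 and 0.0679 FPKM, and Rpl7 at 263 and 142 FPKM against 0 in both, and both passed the test. Near-identical copies exist for Rpl36 (7), Rpl7 (7) and Rpl4 (1). Rpl3 has no such copy, but it overlaps the coding gene Syngr1 and holds 2 small nucleolar RNA genes, and Rpl4 holds 5. The levels of all these members, also that of Rpl3, are therefore less certain.

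In the small subunit, Rps21 had the widest difference of all members, with 415 and 401 FPKM against 0 and 0 (8.68 on the log2(FPKM + 1) scale, SE 2.59, limma adjusted p = 0.0253). Rps18, of the small-subunit head, was at 483 and 204 FPKM against 0 and 0.248 FPKM (8.14, SE 2.50, limma adjusted p = 0.0295). Both differed far beyond the spread between replicates at this stage. Rps18 has 4 near-identical copies and overlaps the coding gene Vps52, so that its level is less certain. In the settings other than leaving out a library, Rps21 passed in each and Rps18 did not. Rps3 did not pass the test, with 665 and 559 FPKM in Cre-positive and 824 and 751 FPKM in Cre-negative SC, and Rps25 was at 226 and 229 against 219 and 189.5 FPKM. For Rps3 both Cre-negative values were the higher ones, and for Rps25 both Cre-positive values were.

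The stalk of the large subunit, which recruits the elongation factors, is formed by Rplp0, Rplp1 and Rplp2. Rplp2 was at 538 and 290.0 FPKM in Cre-positive and at 3.37 and 1.32 FPKM in Cre-negative SC at P0.5 (difference 6.96, SE 1.74, limma adjusted p = 0.0104). Rplp1 was at 1853 and 1246 FPKM in Cre-positive and at 111 and 61.3 FPKM in Cre-negative SC, and Rplp0 at 549.6 and 318 against 341 and 113 FPKM, and neither passed the test. Rpsa, the laminin receptor protein of the small subunit, was at 339.6 and 207 FPKM against 95.2 and 29.5 FPKM and did not pass either. The groups did not overlap for Rplp1 and Rpsa and overlapped for Rplp0.

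The 2 members lower in Cre-positive SC were Rps4l and Rpl27a. Rps4l was listed at 0 in both Cre-positive libraries and stood at 177 and 58.3 FPKM in Cre-negative SC (difference -6.68, SE 1.01, limma adjusted p = 0.000434). Its main copy Rps4x, the X-linked small-subunit gene, went the other way, with 136 and 68.8 FPKM in Cre-positive SC and 0 in both Cre-negative libraries (6.61, SE 2.16, limma adjusted p = 0.0386). Rps4l lies at chr6:148354656-148355598 and overlaps the coding gene Tmtc1 in the annotation, and Rps4x has 7 near-identical copies. Rpl27a was at 33.2 and 16.7 FPKM in Cre-negative SC and at 0 in both Cre-positive libraries (-4.62, SE 1.21, limma adjusted p = 0.0131).

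**Figure D4:**
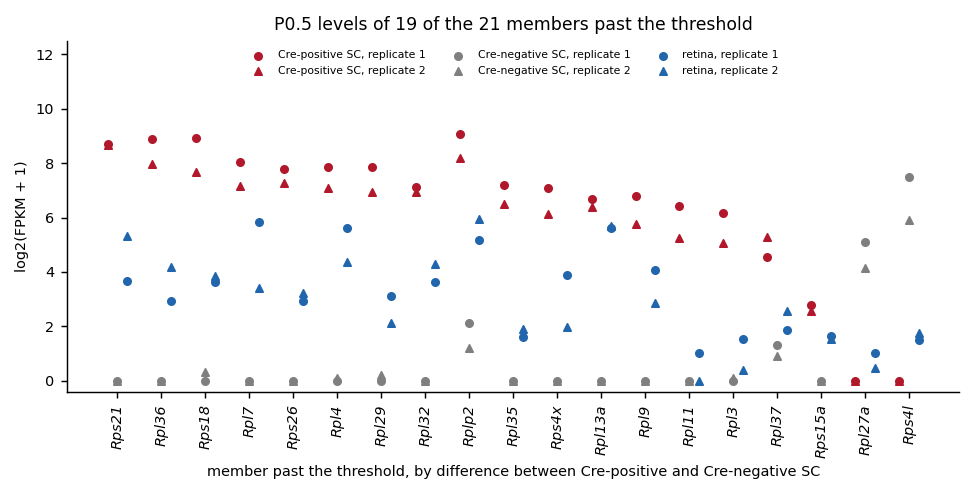
Levels at P0.5 of 19 of the 21 members past the threshold between Cre-positive and Cre-negative SC, ordered by that difference, as log2(FPKM + 1) in Cre-positive SC (red), Cre-negative SC (grey) and retina (blue), with circles for replicate 1 and triangles for replicate 2. For 17 members the red points lie above the grey ones, which mostly sit at 0, and for Rpl27a and Rps4l the grey points lie above the red ones at 0.

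Further members past the threshold at P0.5, all higher in Cre-positive SC, were Rps15a, Rpl13a, Rpl29, Rpl11, Rps26, Rpl37, Rpl9, Rpl35 and Rpl32. Of these, Rps15a was low, at 5.80 and 4.89 FPKM in Cre-positive SC and 0 in both Cre-negative libraries. Rpl11, which with Rpl5 and the 5S RNA can bind MDM2, was at 85.8 and 37.4 FPKM against 0 and 0. Rpl5 was at 0.633 and 0.836 FPKM against 0 and 0.137 FPKM, and it reached 1 FPKM in too few SC libraries to be tested. Rpl23, a further MDM2-binding protein, was at 35.9 and 30.2 against 40.8 and 29.8 FPKM and did not pass. Among lists of related genes, 16 of 45 mitochondrial ribosomal proteins tested were higher and 0 lower, 5 of 17 TOP partners, which are mostly translation factors, were higher and 0 lower, and 5 of 12 ribosome biogenesis factors were higher and 0 lower, compared with the 28.1% higher and 4.35% lower of all genes. Their median differences were 2.94, 2.08 and 2.36 on the log2(FPKM + 1) scale. Leaving out P0.5 Cre-positive replicate 1 gave 3 member calls, where 8.44% of all genes passed, and leaving out any other P0.5 SC library gave 7, where 14.6 to 21.1% of all genes passed. Rpl3 and Rps4l passed in each of these 4 fits. A fit to the 4 P0.5 SC libraries alone called 38 of 55 members tested, 34 higher and 4 lower, and 68% of all genes it tested.

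At the other 3 stages no member differed between Cre-positive and Cre-negative SC by limma. At E17.5 0 of 68 members passed, where 1.57% of all genes did, and 6 had an unadjusted p under 0.05, 2 higher and 4 lower. The smallest p at E17.5 was that of Rpl7, at 23.2 and 41.9 FPKM in Cre-positive SC and 0 in both Cre-negative libraries (difference 5.01, SE 1.59, limma adjusted p = 0.305). Rpl37 followed, at 0 and 0.683 against 83.6 and 2.66 FPKM, and Rps23, of the decoding centre, at 0 and 0 against 25.2 and 0.578 FPKM. In Rpl37 and Rps23 the Cre-negative replicates themselves lay far apart. Without Cre-negative replicate 2, 11 of 66 members passed, all lower in Cre-positive SC, where 14.9% of all genes passed. Without Cre-positive replicate 2, 5 of 67 passed, all higher, where 6.01% of all genes did, and without Cre-negative replicate 1, 1 of 61 passed, where 2.78% did.

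At P7.5 0 of 68 members passed, as did 0% of all genes, and 1 member had an unadjusted p under 0.05. That member, Rpl7, was at 0 and 1 FPKM in Cre-positive and 11.9 and 101 FPKM in Cre-negative SC. Rplp0 was at 0.0732 and 0 against 9.68 and 20.1 FPKM, and Rps18 at 0 and 0.870 against 7.11 and 40.0 FPKM. For these 3 members the Cre-negative libraries were the higher ones, without passing the test. In the adult 0 of 68 members passed, where 0.15% of all genes did, and 2 had an unadjusted p under 0.05. Rpl23 was at 0 in both Cre-positive libraries and at 2.05 and 793 FPKM in Cre-negative SC. Rpl10a, the member used as the tagged protein in other TRAP mice, was at 5.99 and 3.34 FPKM against 0 and 0. Rpl23 owed nearly all of its signal to 1 of the 2 replicates. Without adult Cre-negative replicate 1, 2 members passed (Rpl23 and Rps25), and without replicate 2, 1 passed (Rps12), where 1.8% and 1.88% of all genes did.

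Between E17.5 and P0.5, from axon growth to branching, 5 of 68 members rose in Cre-positive SC (7.35%) and 0 fell, compared with 25.1% and 1.81% of all genes. The share of members that rose was lower than that of all genes, although their median difference, 2.52 on the log2(FPKM + 1) scale, lay above that of all genes, 0.69. Rpl3 was at 0 and 2.10 FPKM at E17.5 before its 70.1 and 32.7 FPKM at P0.5 (difference 4.80, SE 0.75, limma adjusted p = 0.000557). Rpl6, on the outer face of the large subunit, was at 0 in both E17.5 libraries and at 47.1 and 25.9 FPKM at P0.5 (5.17, SE 1.49, limma adjusted p = 0.0245). Rps19, the gene most often mutated in Diamond-Blackfan anaemia, was at 18.7 and 0.528 FPKM and then at 387 and 293 FPKM (5.94, SE 1.95, limma adjusted p = 0.0456). Rps15a (2.66) and Rpl37 (4.53) were the others. All 5 had higher values in both P0.5 libraries than in either E17.5 library. Without E17.5 Cre-positive replicate 1, the library rich in members, 12 of 61 passed, all higher, where 27.8% of all genes passed. Without E17.5 replicate 2, 3 passed as higher and 5 as lower, where 29.1% of all genes passed, and without either P0.5 Cre-positive library 1 passed, where 4.35% and 9.56% did, with Rpl3 past the threshold in all 4 fits.

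The test of the difference between this step and the same step in Cre-negative SC, an interaction term in the fit of the 16 SC libraries, called 9 members as rising more in Cre-positive SC and 1, Rps4l, as rising less, compared with 23.9% and 3.23% of all genes. The widest were Rpl4 (11.64 on the log2(FPKM + 1) scale), Rps20 (11.54) and Rps26 (10.88). Rps20, of the small-subunit head, was at 0 in both E17.5 Cre-positive libraries and at 94.3 and 105 FPKM at P0.5, while it went from 882 and 0 FPKM to 0 and 0 in Cre-negative SC. Rps26, at the mRNA exit, was at 78.1 and 0 FPKM and then 222 and 153 FPKM, against 857 and 8.54 FPKM and then 0 and 0 in Cre-negative SC. For both, replicate 1 of E17.5 Cre-negative SC held nearly all of the Cre-negative signal. The calls of this interaction depended on single libraries. Of the 10 members, none passed in every fit that left out 1 library, and none reversed in direction.

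From P0.5 to P7.5, the step to pruning, 18 of 68 members fell in Cre-positive SC (26.5%) and 0 rose, compared with 29.2% and 0.501% of all genes. The median difference was -4.87 on the log2(FPKM + 1) scale for members tested and -1.19 for all genes. This comparison uses the same P0.5 libraries as those above. Rplp0 fell from 549.6 and 318 FPKM to 0.0732 and 0 FPKM (difference -8.66, SE 2.18, limma adjusted p = 0.0119). Rpl18 fell from 438 and 199 FPKM to 0 in both P7.5 libraries (-8.21, SE 1.94, limma adjusted p = 0.00834). Rps19 fell to 0.372 and 0 FPKM (-8.17, SE 1.95, limma adjusted p = 0.00886). Rps3 and Rps25 did not pass this test, with 182 and 643 FPKM and with 297 and 152 FPKM at P7.5. Without P0.5 Cre-positive replicate 1 the count was 2, without P0.5 replicate 2 it was 6, without P7.5 replicate 1 it was 8 and without P7.5 replicate 2 it was 7, where 5.14%, 11.7%, 22.9% and 22.2% of all genes passed in this order, and Rpl3 passed in each.

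The interaction with Cre-negative SC over the same step called 5 members as falling more in Cre-positive SC and 1, Rps4l, as falling less, compared with 18.7% and 2.74% of all genes. Among those falling more were Rpl7 (-12.27), Rps18 (-11.88), Rplp2 (-8.54) and Rpl3 (-5.56), on the log2(FPKM + 1) scale. In Cre-negative SC, Rpl7 went from 0 in both P0.5 libraries to 11.9 and 101 FPKM and Rps18 from 0 and 0.248 FPKM to 7.11 and 40.0 FPKM, the opposite way from Cre-positive SC. These calls depended on single libraries. Of the 6 members, none passed in every fit that left out 1 library, and none reversed in direction.

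From P7.5 to the adult 0 of 68 members passed in Cre-positive SC, where 0.0836% of all genes did, and 1 had an unadjusted p under 0.05. Rplp1 was at 42.5 and 98.3 FPKM at P7.5 and at 0 in both adult libraries (-6.04, SE 2.11, limma adjusted p = 1). Rplp2 was at 2.16 and 1.19 FPKM and then at 62.6 and 19.3 FPKM, and Rpl13a, which also acts outside the ribosome in the GAIT complex, at 3.14 and 6.45 and then at 102 and 29.96 FPKM. The 2 acidic stalk proteins, which bind the ribosome as a pair, thus had values in opposite orders, although neither change passed.

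In the retina no member changed between neighbouring stages by limma. Of 60 members tested, 0 passed from E17.5 to P0.5, 0 from P0.5 to P7.5 and 0 from P7.5 to the adult, and none had an unadjusted p under 0.05, while 0%, 0.0735% and 0% of all genes passed. Rps25 was at 225 and 1764 FPKM at E17.5, 172 and 100.2 at P0.5, 463 and 717 at P7.5 and 59.1 and 860.5 FPKM in the adult. It had the smallest p of any member in the first 2 steps (-2.26 and 2.13 on the log2(FPKM + 1) scale). Rpl27a and Rpl29 followed in the first step (-1.67 and -2.65), Rpl8 and Rpl13a in the second (-2.88 and -2.97). In the last step they were Rps9 (2.50), Rps14 (2.24) and Rps10 (2.15). The replicates of P7.5 and adult retina lay far apart, as in Rps9 with 0.479 and 179 FPKM at P7.5, and replicate 1 was the lower one for each of Rpl8, Rpl13a and Rps9 at both stages. The outcome for Rps9 in the last step depended on whether P7.5 retina replicate 2 was in the fit.

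Between Cre-positive SC and retina at the same stage, members passed the test only at P0.5. There 10 of 65 members tested were higher in SC (15.4%) and 0 lower, compared with 32.7% and 2.01% of all genes. Both SC libraries were above both retina libraries for 53 of 65 members (81.5%), compared with 53.7% of all genes, and below for 8 (12.3%), compared with 28.8%. The median difference was 2.95 for members and 1.10 for all genes on the log2(FPKM + 1) scale. A smaller share of members than of all genes thus passed the test, while a larger share had no overlap. These are 2 tissues with different cells, and summed red blood cell markers were 134 and 168 FPKM in SC and 0.980 and 1.48 FPKM in retina. Astrocyte markers (47.9 and 36.2 against 1.09 and 0.880 FPKM) and oligodendrocyte markers (84.7 and 86.6 against 3.95 and 2.79 FPKM, with Cnp alone above 0 in SC) were higher in SC as well, 3 and 2 of the 6 astrocyte markers reaching 1 FPKM in SC and none in retina. The part of these cells was not tested.

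Rplp1 had the smallest adjusted p of these, at 1853 and 1246 FPKM in SC and 55.1 and 79.1 FPKM in retina (difference 4.504, SE 0.93, limma adjusted p = 0.00247). The widest differences were those of Rpl11 (85.8 and 37.4 against 1 and 0 FPKM, 5.35), Rpsa (339.6 and 207 against 9.06 and 3.67 FPKM, 5.28) and Rpl35 (147 and 90.2 against 2.03 and 2.78 FPKM, 5.10). The others past the threshold were Rpl6, Rpl3, Rps7, Rpl37, Rpl13 and Rps20. Rps3, at 791 and 333 FPKM in P0.5 retina, overlapped its SC values. The calls depended on single libraries, with 0 without Cre-positive replicate 1, 4 without Cre-positive replicate 2, 3 without retina replicate 1 and 5 without retina replicate 2, where 10%, 18.6%, 23.5% and 23.2% of all genes passed, and a pseudocount of 0.1 FPKM gave 1.

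At E17.5 0 of 65 members passed between SC and retina, where 1.31% of all genes did, and 6 had an unadjusted p under 0.05, all lower in SC. The smallest p-values were those of Rps20, at 0 in both SC libraries and 12.9 and 11.1 FPKM in retina, Rpl5, at 0 and 0.178 against 2.14 and 11.4 FPKM, and Rps15a, at 0 and 0 against 1.34 and 2.39 FPKM. Without E17.5 Cre-positive replicate 2, 4 members passed, all higher in SC, where 10.2% of all genes passed. At P7.5 0 of 65 passed, where 0.0158% of all genes did, and none had an unadjusted p under 0.05. The smallest p there belonged to Rpl10a, at 7.71 and 0.586 FPKM in SC and 0.193 and 0.298 FPKM in retina, and Rpl4 was also among the 3 smallest. In the adult 0 of 65 passed, where 0.0949% of all genes did, and 7 had an unadjusted p under 0.05, 6 of them lower in SC. Rplp1 came nearest, at 0 in both SC libraries and 37.0 and 68.5 FPKM in retina (-5.68, SE 0.93, limma adjusted p = 0.0514), and it passed without Cre-positive replicate 2, with a pseudocount of 0.1 FPKM and with median-ratio scaling. Rps15 showed the same order, at 0 and 0 against 47.4 and 58.7 FPKM, as did Rpl23, at 0 and 0 against 18.2 and 7.99 FPKM.

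Some genes have a special place in this design. Rpl22, the protein that carries the HA tag, was at 12.7 and 0.0391 FPKM in E17.5 Cre-positive SC, against 7.84 and 0 FPKM in E17.5 Cre-negative SC. It was listed at 0 in every Cre-positive SC library of the later stages. In Cre-negative SC of these stages only adult replicate 1 was above 0, at 0.909 FPKM. In the retina Rpl22 was between 0 and 6.74 FPKM. Rpl24, which the study used as a protein to check the precipitate, was at 51.3 and 29.2 FPKM in P0.5 Cre-positive SC. In P0.5 Cre-negative SC it was at 3.54 and 2.55 FPKM, and this difference did not pass (limma adjusted p = 0.115). In Cre-positive SC, Rpl24 fell to 1.18 and 0 FPKM at P7.5 (difference -4.75 on the log2(FPKM + 1) scale, SE 1.44, limma adjusted p = 0.0297). Rps3a1, a small-subunit gene outside the symbol rule, was at 404 and 309 FPKM in P0.5 Cre-positive SC, compared with 60.1 and 19.3 FPKM in P0.5 Cre-negative SC, and did not pass (limma adjusted p = 0.264).

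Some members are tissue-restricted relatives of another member. Rpl3l, known from heart and skeletal muscle, and Rpl10l and Rpl39l, known from testis, were listed at 0 in all 24 libraries. Of their main copies, Rpl3 was high in P0.5 Cre-positive SC, Rpl10 reached at most 12.4 FPKM, in E17.5 Cre-negative SC replicate 1, and Rpl39 was at 54.8 and 101 FPKM in P0.5 Cre-negative SC and at 2.67 and 0.939 FPKM in Cre-positive SC. Rps27l, the copy of Rps27 that p53 can induce, reached at most 3.56 FPKM, in E17.5 retina replicate 2, and was above 0 in 6 of the 8 retina libraries and in 4 of the 16 SC libraries. Rps4l was above 10 FPKM only in P0.5 Cre-negative SC.

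Ribosome run-off was measured in adult Cre-positive SC and retina, with 1 library for each condition, so there is no replicate check and no test. In this assay the lysate was incubated with a translation extract and inhibitors of new initiation before precipitation, so that elongating ribosomes can run off their mRNAs. The values are read counts, 3262914 on genes without and 349395 with run-off in SC, and 4686284 and 315009 in retina. Intervals are 95% and cover counting error only, since PCR reads are not independent molecules.

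The members' share of reads was close to level in SC and higher with run-off in the retina. In SC, they had 6979 reads without and 802 with run-off, a share of 0.214% (Wilson interval 0.209 to 0.219%) and 0.23% (0.214 to 0.246%). In retina they had 5477 and 1037 reads, a share of 0.117% (0.114 to 0.12%) and 0.329% (0.31 to 0.35%). Over all genes 10.7% of reads were left in SC and 6.72% in retina, and of member reads in retina 18.9%. The retina intervals did not overlap.

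By single members, most had fewer reads with run-off. In SC, 49 of 54 members with a read did (90.7%), where 84.9% of all genes did, and in retina 56 of 63 (88.9%), where 92.1% did, both near the background. Scaled to each library's total of reads on genes, 39 of 54 members (72.2%) were lower with run-off in SC, where 72.3% of all genes were, and 25 of 63 (39.7%) in retina, where 71.9% were. Among members with at least 10 reads without run-off, none was left for 14 of 33 in SC (42.4%), where 52.9% of all such genes had none left, and for 6 of 40 in retina (15%), where 55% had none left. The median reads without run-off of these members were 37 in SC and 46 in retina, against 145 and 54 for all such genes.

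**Figure D5:**
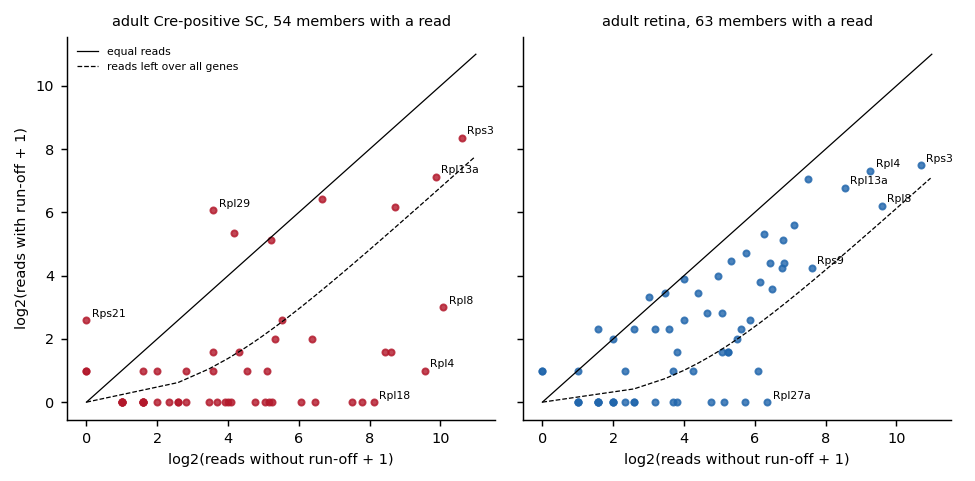
Each point is a member in adult Cre-positive SC (left, 54 members with a read) or retina (right, 63), with log2(reads + 1) without run-off on the horizontal and with run-off on the vertical axis. The solid line marks equal reads and the dashed line the share of reads left over all genes (10.7% in SC, 6.72% in retina), and in the retina most points lie between both lines, while in SC Rpl8 and Rpl4 lie far below the dashed line and Rpl29 above the solid line.

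The 5 members with most reads in SC without run-off differed in what was left. Rps3 went from 1561 to 328 reads (21% left, 18.6 to 23.7%), Rpl13a from 932 to 138 (14.8%, 12.3 to 17.7%) and Rplp0 from 418 to 71 (17%, 13 to 21.9%). Rpl8, close to the peptidyl transferase centre, went from 1084 to 7 reads (0.646%, 0.259 to 1.34%) and Rpl4 from 750 to 1 read (0.133%, 0.00337 to 0.745%). The intervals of the first 3 lie above the 10.7% left over all genes and those of Rpl8 and Rpl4 below it. No read was left of 277 for Rpl18 (interval 0 to 1.34% left), of 221 for Rpl3 (0 to 1.68%) and of 181 for Rpl7 (0 to 2.06%). Set against a floor of 3 reads, these are 92.3-fold, 73.7-fold and 60.3-fold, not scaled to total reads, and the intervals allow smaller folds.

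More reads with than without run-off were found for 5 members in SC. Among them, Rpl29 went from 11 to 66 reads, while Rps21 went from 0 to 5 and Rpl37 and Rps4x each from 0 to 1. Rps25 was nearly level, at 36 and 34 reads, and Rplp1 was at 100 and 85 reads. Rpl29 has 16 near-identical copies and Rps25 overlaps other genes, so the source of their reads is less certain.

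In retina the 5 members with most reads without run-off were Rps3, from 1658 to 179 reads (10.8% left, 9.2 to 12.6%), Rpl8, from 765 to 73 (9.54%, 7.4 to 12.1%), Rpl4, from 611 to 158 (25.9%, 21.6 to 30.9%), Rpl13a, from 374 to 108 (28.9%, 23.1 to 35.9%), and Rps9, from 194 to 18 (9.28%, 5.38 to 15.1%). All 5 kept more than the 6.72% left over all genes, with the interval of Rps9 reaching below it. Rpl4 stood at 25.9% in retina and 0.133% in SC. Whether SC and retina differ in this cannot be tested with 1 library each. Rpl13 (7 and 9 reads), Rpl5 (2 and 4), Rpl10 (0 and 1) and Rps6 (0 and 1) had more reads with run-off in retina, and of the 81 reads of Rpl27a none was left (at least 27.0-fold lower). Rpl22 had 113 reads without and 20 with run-off in retina (17.7%, 10.4 to 28.6%) and 1 and 0 in SC.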

How the data were processed

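TRAP libraries of SC and retina and 4 run-off libraries were analysed from the deposited files. The authors aligned reads to the mouse genome mm10 with TopHat2 (2.0.12), made the FPKM values with Cufflinks (2.2.1) and, for run-off, counts of reads per gene with HTSeq (0.6.1p1), per the labels' processing notes and the study's methods. The deposited FPKM values are 1 column per library, and 4 genes with a mark in place of a value were left out.

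Members were found by symbol. FPKM values were taken to log2 after adding a pseudocount of 1, and genes at 1 FPKM or more in at least 2 libraries of a fit were tested with limma (3.58.1, R 4.3.3, trended and robust prior, statmod 1.5.0), with Benjamini-Hochberg adjustment over all genes of a contrast and a threshold of 0.05. The fits held the 16 SC libraries (5983 genes), the 8 retina libraries (4080) and the 16 Cre-positive SC and retina libraries (6321). The limma fit was tested on simulated data. Deposited counts of run-off were compared without a test, with Wilson intervals for shares of all reads, exact intervals for reads left relative to reads without run-off and a floor of 3 reads. Alternatives were a pseudocount of 0.1, no filter, median-ratio scaling, a replicate block, single stages and each library left out.

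Named were Rpl22, Rpl24, Rps3a1, the stalk proteins, Rpsa, Rps6, the MDM2-binding members, members with second copies, the 5 highest in retina, the 3 widest differences in each direction among those past the threshold (or the 3 smallest p-values where fewer than 3 passed), and in run-off the 5 with most reads and those that gained reads. Rpl15, Rps10, Rps14, Rps15a, Rpl35 and others were named after their values were seen. The members, the lists of mitochondrial ribosomal proteins, TOP partners and biogenesis factors, and the tests were chosen with earlier results of these data known. Genomic positions and copies came from GENCODE M21 (blastn 2.17.0) and starts from RefSeq (GRCm38.p6). Some members are not reported by name here.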

Additional observations from a re-analysis of the deposited data

Results flagged for a closer look

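The change between stages differed between Cre-positive and Cre-negative SC for 10 members from E17.5 to P0.5 and for 6 from P0.5 to P7.5, by the interaction term of limma (adjusted p under 0.05, differences on the log2(FPKM + 1) scale, Cre-positive change minus Cre-negative change). For the step to P0.5 the values included 5.63 for Rpl3, 7.56 for Rpl37, 7.23 for Rpl38, 11.64 for Rpl4, 7.34 for Rplp2, 3.87 for Rps15a, 11.54 for Rps20, 10.88 for Rps26 and -6.75 for Rps4l. For the step to P7.5 they included -5.56 for Rpl3, -12.27 for Rpl7, -8.54 for Rplp2, -11.88 for Rps18 and 5.21 for Rps4l. Both steps use the same P0.5 libraries, so that the opposite signs in Rpl3, Rplp2 and Rps4l are not independent of each other.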

How the results depend on the processing

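Of 144 counts of members under other settings, 102 stayed within 1.5 times the reported count and 42 did not. Beside leaving out a library, those that moved were the contrast of Cre at P0.5 in a fit to that stage alone (38 calls), the P0.5 contrast of Cre-positive SC with retina with a pseudocount of 0.1 (1 call) and without a filter (6), the same comparison in the adult with a pseudocount of 0.1 (1) and with median-ratio scaling (1), and 2 run-off counts of members with fewer reads (31 in SC among members with at least 10 reads, 25 in retina scaled to total reads). The cause was not tested for the limma counts, while the run-off counts follow from fewer members and from the scaling. Leaving out 1 library gave, between Cre-positive and Cre-negative SC, 0 to 11 calls at E17.5, 3 to 7 at P0.5, 0 at P7.5 and 0 to 2 in the adult. It gave 1 to 12 calls in the axon steps from E17.5 to P0.5, 2 to 8 from P0.5 to P7.5 and 0 from P7.5 to the adult, 0 to 27 and 0 to 5 in the interactions of the first 2 steps, 0 to 1 in retina from P7.5 to the adult, and 0 to 4, 0 to 5 and 0 to 1 between Cre-positive SC and retina at E17.5, P0.5 and in the adult. A lone library left in a group is assumed to vary like the others. Of 645 values of single called members, 0 reversed and 266 no longer passed.

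Cre-negative mice were littermates, and SC and retina are described as coming from the same animals, but no source ties a replicate number to a litter, animal or day. Over all genes tested, deviations of same-numbered Cre-positive and Cre-negative libraries correlated by 0.417, 0.426, 0.324 and 0.0595 at the 4 stages in order. Those of Cre-positive SC and retina correlated by 0.126, 0.400, 0.346 and -0.0299. Over the 81 members, the values for Cre-positive and Cre-negative libraries were 0.369, 0.201, 0.185 and 0.133. With the number as a replicate block, 26 members passed between Cre-positive and Cre-negative SC at P0.5, 5 and 24 in the first 2 axon steps, 12 and 8 in their interactions and 8 between Cre-positive SC and retina at P0.5, and none elsewhere, so that no count moved by over 1.5 times. The share of all genes that passed with the block is not given here, so these counts describe the setting and not the members. Depth was estimated in 9 of 24 libraries only, and with 2 libraries per group a member at 0 in one replicate cannot be told from one that was missed.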
